A study of Mus musculus with 6 samples.

Results

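The genes described here were 43 genes of DNA replication and of the passage from G1 into S phase, named as a list by symbol and found by Ensembl identifier among the 47643 genes of the deposited tables. They were measured in epithelial tumor cells sorted as CD45-EPCAM+ from 6 mammary tumors of MMTV-PyMT mice, the strain FVB/N-Tg (MMTV-PyVT)634Mul/J. In these mice the mouse mammary tumor virus promoter drives the polyoma middle T antigen in mammary epithelium, and the transgene was present in every animal. All 6 tumors came from animals given B20-4.1.1, which blocks mouse VEGF-A. The antibody was dosed at 5 mg/kg by intraperitoneal injection 2 times per week, starting at 7 weeks of age, and were collected after 6 weeks. The study asks how tumor cells differ when this treatment leaves a tumor more or less hypoxic. The hypoxia class of each tumor is not part of the labels used here, and vehicle-treated tumors were not analysed here, so every tumor is given by its own value and no classes were compared.

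Before S phase, the origin recognition complex, Cdc6 and Cdt1 load the MCM2-7 helicase onto origins, a step called licensing. Cdc45, the GINS complex and Mcm10 then turn the loaded helicase into a moving one, and polymerases, the clamp Pcna, its loader and the ligase Lig1 copy the strands. Many of these genes are transcribed together at the end of G1 by E2F factors. This happens once cyclins with their kinases, cyclin E among them, have relieved repression by the retinoblastoma protein. The genes are widely used as a readout of proliferating cells in tumors.

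Because E2F factors are known regulators of this group, the promoters were searched for E2F octamers. The search covered TTTCCCGC, TTTGGCGC, TTTCGCGC and TTTGCCGC on both strands, in windows from 250 bases before to 50 bases after the RefSeq start. Of the 43 genes, 35 had a window, and 5 of these had several starts, making 41 windows. The windows below show the 4 genes in which an octamer lay within 160 bases before the start and in which no annotated exon overlapped those bases. They are the helicase subunits Mcm6 (chr1:128359706-128359865, minus strand) and Mcm5 (chr8:75109349-75109508, plus strand), the helicase loader Cdc6 (chr11:98907991-98908150, plus strand) and the catalytic subunit of DNA polymerase alpha, Pola1 (chrX:93632156-93632315, minus strand). Each is written 5′ to 3′ on the gene's own strand, from RefSeq on GRCm38.p6, with the octamers in capitals.
Mcm6: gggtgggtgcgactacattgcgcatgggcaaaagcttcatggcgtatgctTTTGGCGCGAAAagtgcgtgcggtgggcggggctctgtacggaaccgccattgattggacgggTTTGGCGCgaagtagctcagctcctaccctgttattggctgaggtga
Mcm5: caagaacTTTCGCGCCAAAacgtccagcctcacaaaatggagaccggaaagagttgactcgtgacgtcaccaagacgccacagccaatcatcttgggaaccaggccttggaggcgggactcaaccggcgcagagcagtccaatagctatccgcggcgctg
Cdc6: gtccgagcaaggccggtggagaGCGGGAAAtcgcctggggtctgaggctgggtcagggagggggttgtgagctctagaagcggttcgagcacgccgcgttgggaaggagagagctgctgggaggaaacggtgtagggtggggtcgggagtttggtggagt
Pola1: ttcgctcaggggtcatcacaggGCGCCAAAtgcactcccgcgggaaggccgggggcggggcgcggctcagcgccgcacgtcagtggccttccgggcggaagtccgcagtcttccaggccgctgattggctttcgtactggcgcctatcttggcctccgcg
In Mcm6 and in Mcm5 a pair of octamers on opposite strands overlap and appear as a single run of capitals, and Mcm6 has another octamer nearer the start.

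An octamer was present at any start in 16 of the 35 genes (45.7%), against 2.61% of 27025 genes and 3.29% of 17492 protein-coding genes. By window it was 16 of 41 (39.0%), against 2.26% of 32851. In the bases before the start alone, an octamer was present in 11 of the 35 genes (31.4%), against 2.16% of all genes and 2.72% of protein-coding genes. The 16 genes were Mcm3, Mcm5, Mcm6, Mcm7, Orc1, Cdc6, Cdt1, Gins3, Pola1, Rfc3, Lig1, Uhrf1, Hells, E2f2, Dtl and Clspn. They span every role of the list except nucleotide supply. The 7-letter cores, the same octamers without the leading T and therefore contained in them, were present in 24 of 35 (68.6%) against 10.9% of all genes. A list of 29 mitotic genes, of which 26 had a window, held an octamer in 1. The cell cycle homology element TTTGAA, known from promoters of mitotic genes, was present in 19 of those 26 (73.1%), in 6 of the 35 replication genes (17.1%) and in 20.2% of all genes. CCAAT was present in 23 of 35 (65.7%), in 22 of 26 mitotic genes and in 41.1% of all genes. Such a match describes letters in the window and not binding.

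Counts on genes ranged from 2509482 to 5893246 per tumor, lowest in tumor 2, so that 3 counts, taken as the limit of detection, stood for 0.509 to 1.20 CPM (counts scaled to a common library total). The luminal and epithelial markers, Epcam among them at 611 CPM or more, summed to between 3957 and 4874 CPM in every tumor, while 5 endothelial markers summed to at most 4.61 CPM and 6 fibroblast markers to at most 21.6 CPM. Some libraries stood apart in their markers. In tumor 3, 13 immune markers reached a sum of 231 CPM, where other libraries had 16.2 to 52.5 CPM, and 6 erythroid markers one of 864 CPM, where others had at most 69.4 CPM. The highest immune markers were Lyz2 at up to 148 CPM, Cd68 at up to 29.1, C1qa at up to 17.7, Csf1r at up to 15.5 and C1qb at up to 12.6 CPM. The immune marker Ptprc, which encodes CD45, stayed at 3.39 CPM or less in all tumors, as did the rest of that list. Cd8a and Cd79a had no count. In tumor 5, 6 basal markers summed to 502 CPM, against 131 to 286 CPM in the others, with Krt14 and Krt17 contributing most and Acta2 and Myh11 near 0. Tumor 1 stood apart over all genes and is taken up below. In sorted bulk RNA, a smaller share of cells in S phase and less RNA per such cell cannot be told apart.

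All 43 genes had at least 1 count in every tumor, and 41 exceeded 3 counts in every tumor. The exceptions were Ccne1, which encodes cyclin E1, with 2 counts in tumor 2, and E2f8, a repressor of E2F targets, with 3 counts in tumor 1 and 2 counts in tumor 2. Together the 43 genes held 0.0752 to 0.107% of all counts. Their summed level was, from tumor 1 to tumor 6, 991, 777, 888, 807, 1073 and 752 CPM. Tumors 5 and 1 were highest and tumors 6 and 2 lowest, with a ratio of 1.43 between the extremes. The median was 848 CPM, with an SD of 128 CPM over the 6 tumors. The 3′ method makes about 1 fragment per transcript, so CPM compares transcripts between genes without division by length. TPM, which divides by exon length, is given beside it where genes of the list are compared.

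**Figure D1:**
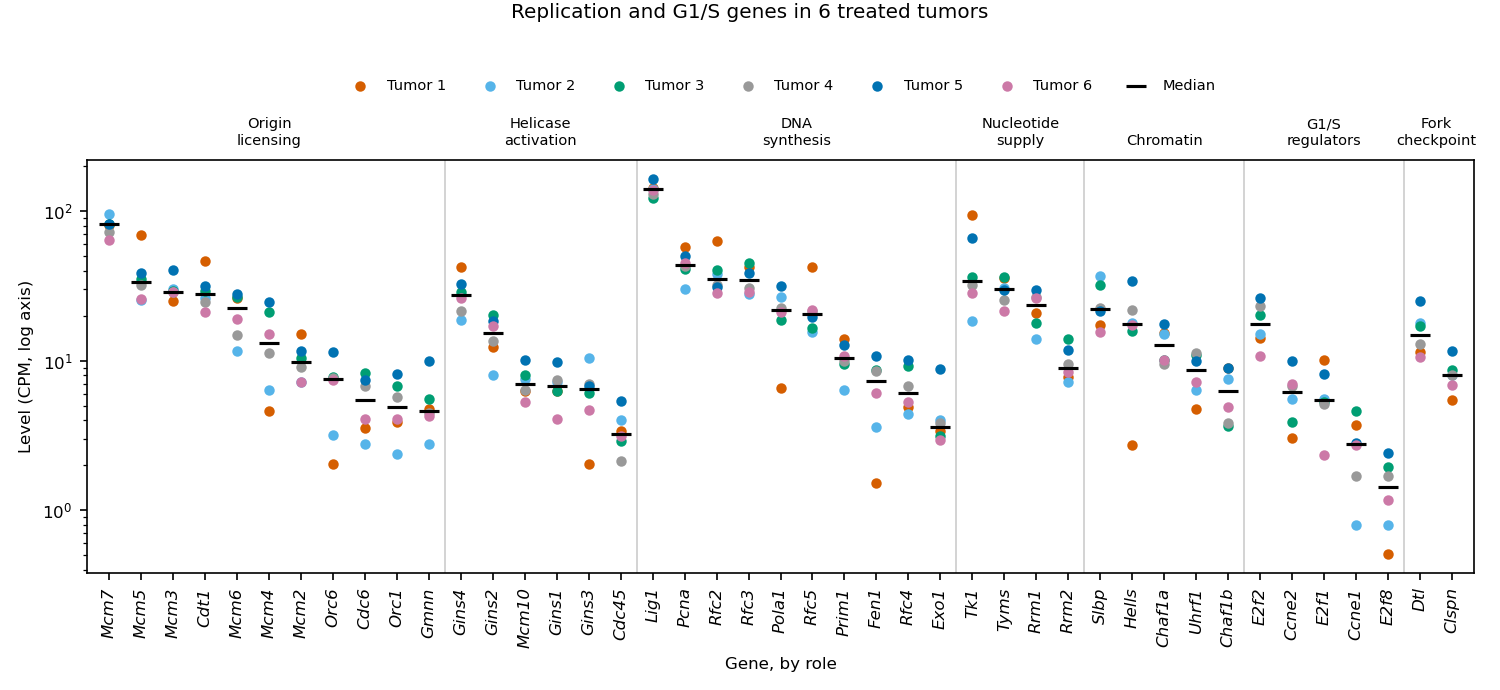
Level of each of the 43 genes in CPM (log axis), grouped by role and ordered by median within a role. Each point is 1 of 6 tumors and the bar is the median. Lig1 at a median of 140 CPM lies above all others, E2f8 at 1.44 CPM lies lowest, and the tumor 1 points of Hells, Fen1, Pola1 and Orc6 fall below those of the other tumors.

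The most abundant gene was Lig1 (chr7:13277283-13311433, GRCm38, plus strand), the ligase that joins Okazaki fragments. Its level was 144 CPM in tumor 1, 141 CPM in tumor 2, 122 CPM in tumor 3, 130 CPM in tumor 4, 165 CPM in tumor 5 and 139 CPM in tumor 6. On the CPM scale its lowest tumor exceeded every value of the other 42 genes, and its coefficient of variation (CV) between tumors was 10.4%, the smallest of the group. Mcm7 (chr5:138164583-138172422, minus strand) followed, with a median of 81.7 CPM and a range of 64.4 to 96.4 CPM. By TPM, Lig1 was again highest with a median of 83.2, but Gins4, a GINS subunit, came next with 51.1, ahead of Mcm7 with 46.7 and of Pcna with 46.5. Lig1, Mcm7, Pcna, Rfc2 and Rfc3 made up 34.2 to 43% of the summed level. The median gene of the list had 12.7 CPM, 23 genes had a median of at least 10 CPM, and 6 had one under 5 CPM.

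Among the 11 licensing genes, the 6 subunits of the MCM2-7 ring differed widely although they assemble in equal copies. Medians on the CPM scale were 81.7 for Mcm7, 33.7 for Mcm5, 29.0 for Mcm3, 22.5 for Mcm6, 13.2 for Mcm4 and 9.79 for Mcm2, and in TPM they kept this order, from 46.7 for Mcm7 to 3.63 for Mcm2. Counts of Mcm7 exceeded those of Mcm2 by 5.39 times in tumor 1 to 13.4 times in tumor 2, with a median of 7.91. Mcm7 was thus above Mcm2 in 6 of 6 tumors. Mcm7 overlaps Cops6 on the opposite strand, and 7.97% of the 50-base windows in its last 300 bases occur in another gene, while for Mcm2 the share was 20.3%. Mcm3 was 25.1 CPM in tumor 1, between 28.7 and 30.3 CPM in tumors 2, 3, 4 and 6, and 40.5 CPM in tumor 5.

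Orc1 and Orc6, of the origin recognition complex, had medians of 4.92 and 7.54 CPM, and Cdc6 had 5.45 CPM. In TPM these medians were 3.62, 7.67 and 2.68, so that only in CPM was each of them below every ring subunit, Mcm2 included. Cdt1, which brings the ring to the origin, had a median of 27.8 CPM (22.8 TPM), with 46.2 CPM in tumor 1 as its highest value. Gmnn encodes geminin, the inhibitor that binds Cdt1 outside G1, and its median was 4.61 CPM (8.17 TPM). Gmnn was 4.75 CPM in tumor 1, 2.79 CPM in tumor 2, 5.58 CPM in tumor 3, 4.47 CPM in tumor 4, 9.98 CPM in tumor 5 and 4.30 CPM in tumor 6. Tumor 5 was thus highest and tumor 2, with 7 counts, lowest. The ratio of Cdt1 to Gmnn counts was, in the same order of tumors, 9.71, 9.43, 5.26, 5.52, 3.16 and 4.91, lowest in tumor 5.

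Of the 6 helicase activation genes, Gins4 and Gins2 had medians of 27.6 and 15.4 CPM, and Gins1 and Gins3 of 6.74 and 6.43 CPM, although the GINS complex holds one of each. In TPM the order was Gins4 with 51.1, Gins1 with 11.5, Gins2 with 9.54 and Gins3 with 5.97. All 50-base windows in the last 300 bases of Gins2 occur on the opposite strand within Gse1 (100%), and whether counting used the strand is not given in the sources used here. Mcm10, a helicase activator, had a median of 6.98 CPM and Cdc45, the partner of MCM and GINS in the moving helicase, 3.26 CPM. Gins3 was 2.04 CPM in tumor 1 and 10.4 CPM in tumor 2, with the others between 4.69 and 7.02 CPM.

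Of the 10 DNA synthesis genes, the clamp Pcna had a median of 43.8 CPM and a range of 30.3 to 57.9 CPM. The clamp loader subunits Rfc2, Rfc3, Rfc5 and Rfc4 had medians of 35.1, 34.8, 20.5 and 6.04 CPM. In TPM, Rfc3 led with 24.7, ahead of Rfc2 with 14.7, Rfc5 with 11.0 and Rfc4 with 10.1. Rfc5 was 42.3 CPM in tumor 1, above the 15.5 to 21.9 CPM of the others, and Rfc2 was 63.1 CPM there, above the 28.5 to 40.5 CPM of the others. For Rfc5 and Rfc4, 59.0% and 54.6% of the end windows lie in an opposite-strand gene, Wsb2 and Eif4a2. Primase and polymerase alpha start each new strand. Prim1, the primase, had a median of 10.4 CPM with a range of 6.38 to 13.9 CPM. Pola1 was 6.62 CPM in tumor 1, 26.7 CPM in tumor 2, 18.7 CPM in tumor 3, 22.5 CPM in tumor 4, 31.7 CPM in tumor 5 and 21.1 CPM in tumor 6. Tumor 1 was thus well below the rest. Fen1, the flap nuclease that trims Okazaki fragments, was 1.53 CPM in tumor 1 (9 counts), 3.59 CPM in tumor 2 and between 6.05 and 10.8 CPM elsewhere. Of its end windows, 77.3% lie in Gm10143 on the opposite strand. Exo1, an exonuclease of repair and replication, was 8.79 CPM in tumor 5, above the 2.93 to 3.98 CPM of the others.

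The nucleotide supply genes varied most as a role. Their sum was 159 CPM in tumor 1, 70.1 CPM in tumor 2, 104 CPM in tumor 3, 93.6 CPM in tumor 4, 138 CPM in tumor 5 and 84.5 CPM in tumor 6. Most of that range came from Tk1 (chr11:117815526-117826092, minus strand), the thymidine kinase of S phase, which salvages thymidine. Tk1 was 94.5 CPM in tumor 1, 18.3 CPM in tumor 2, 36.1 CPM in tumor 3, 31.9 CPM in tumor 4, 66.7 CPM in tumor 5 and 28.3 CPM in tumor 6, a CV of 62.7%, the largest of the 43. Tyms, the thymidylate synthase that makes thymidylate anew, ranged only from 21.5 to 36.1 CPM. The ratio of Tk1 to Tyms counts therefore ran from 0.597 in tumor 2 to 2.63 in tumor 1. Rrm1, the large subunit of ribonucleotide reductase, had a median of 23.6 CPM, and Rrm2, its S-phase subunit, 8.98 CPM. The ratio of Rrm1 to Rrm2 counts ran from 1.28 in tumor 3 to 3.14 in tumor 6. In TPM the order of the medians was the other way, with 5.37 for Rrm1 and 8.28 for Rrm2.

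Of the 5 chromatin genes, Slbp, the stem-loop binding protein of histone mRNA, had a median of 22.1 CPM. Its values were 37.1 CPM in tumor 2 and 32.3 CPM in tumor 3, above the 15.6 to 22.6 CPM of the others. Hells (chr19:38930915-38971051, plus strand), a chromatin remodeler that maintains DNA methylation, was 2.71 CPM in tumor 1, 17.9 CPM in tumor 2, 15.8 CPM in tumor 3, 21.9 CPM in tumor 4, 34.3 CPM in tumor 5 and 17.4 CPM in tumor 6. Tumor 1, with 16 counts, lay apart at the low end. Uhrf1, which brings the maintenance methyltransferase to new DNA, had a median of 8.60 CPM and a range of 4.75 to 11.3 CPM. The histone chaperone subunits Chaf1a and Chaf1b had medians of 12.7 and 6.23 CPM (3.69 and 3.41 TPM), and in Chaf1a 77.3% of the end windows recur among 29 other genes.

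Among the 5 G1/S regulators, E2f2 was the most abundant, with a median of 17.6 CPM (9.29 TPM), against 5.46 CPM (4.47 TPM) for E2f1, both activators of the S-phase program. E2f2 counts exceeded E2f1 counts in 6 of 6 tumors, by 1.38 times in tumor 1 to 4.58 times in tumors 4 and 6. Cyclin E2, from Ccne2, had a median of 6.19 CPM (4.58 TPM) and cyclin E1, from Ccne1, 2.76 CPM (2.58 TPM). For Ccne2, 64.1% of the end windows lie in Ints8 on the opposite strand. E2f8 had a median of 1.44 CPM. The 2 checkpoint genes were Dtl, which targets Cdt1 for destruction, with a median of 15.0 CPM, and Clspn, which encodes claspin, with 8.03 CPM, while in TPM their medians were 2.81 and 2.94. Both were highest in tumor 5, at 25.2 and 11.6 CPM.

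The spread between tumors was compared with that over all genes. After TMM scaling, edgeR's trimmed-mean normalization between libraries, 42 of the 43 genes passed the filter on low counts and E2f8 did not. The highest tumor was at least 2 times the lowest in 31 of the 42, against 68.9% of the 12088 genes tested. The median ratio was 2.29, and 2.46 over all genes, and the median biological CV from edgeR was 34.9%, and 35.4% over all genes. In 7 of 42 the biological CV lay above the trend for genes of that abundance, against 33.1% of all genes. These were Hells, Fen1, Orc6, Mcm4, Tk1, Pola1 and, by a small margin, Mcm5. The largest ratios were 12.7 for Hells, 7.11 for Fen1, 5.63 for Orc6, 5.42 for Gins3 and 5.40 for Mcm4. The smallest were 1.40 for Lig1, 1.41 for Mcm7 and 1.48 for both Rfc3 and Tyms. Without tumor 5, 20 of the 42 genes (47.6%) had a ratio of 2 or more, against 62.8% of all genes, with median ratios of 1.99 and 2.29. Without tumor 1 it was 23 (54.8%), against 43.4%, with median ratios of 2.11 and 1.89, so the side on which the group lay depended on these libraries.

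Tumor 5 held the highest value of the group most often. Of the 42 genes, 22 were highest in tumor 5, against 16.9% of all genes, and 1 was lowest there, Rfc2, against 15.2%. Tumor 1 held the highest value of 11 genes (32.5% of all genes), tumor 2 of 3 (19%), tumor 3 of 5 (12.1%), tumor 4 of 1 (9.77%) and tumor 6 of 0 (9.77%). At the other end, tumor 2 held the lowest value of 16 genes (21.4%), tumor 1 of 12 (31%), tumor 6 of 7 (12.1%), tumor 3 of 4 (9.62%) and tumor 4 of 2 (10.6%). Tumor 2 was also the shallowest library. The 22 genes highest in tumor 5 came from every role. They were Orc1, Orc6, Gmnn, Mcm3, Mcm4 and Mcm6 in licensing, Mcm10, Cdc45 and Gins1 in helicase activation, Pola1, Rfc4, Fen1, Lig1 and Exo1 in synthesis, Rrm1 in nucleotide supply, Chaf1a, Chaf1b and Hells in chromatin, Ccne2 and E2f2 among the regulators, and Clspn and Dtl in the checkpoint. With a trend of 3′ base composition removed the count was 20, against 13.8% of all genes. With scaling by library totals alone it was 21, against 18.5%. Without tumor 1 it was 29 of 42, against 21.9% of all genes.

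**Figure D2:**
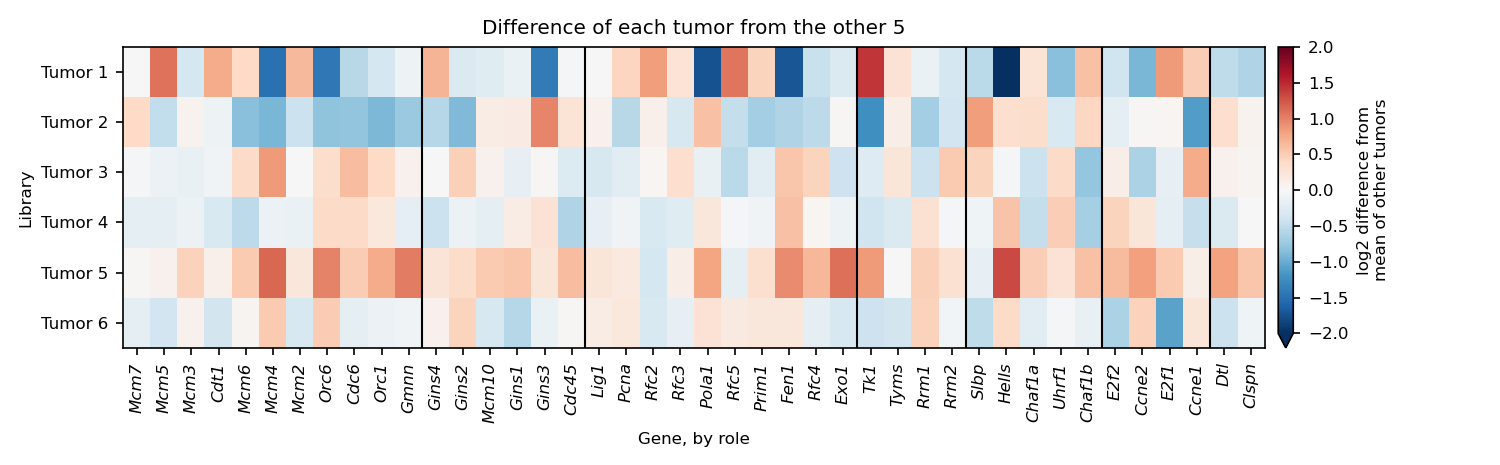
Difference of each tumor from the mean of the other 5 (log2 of TMM-scaled CPM plus 1) for the 42 genes that passed the filter, ordered as in the plot of levels, with higher in red and lower in blue. The row of tumor 5 is red for 38 of the 42 genes, and the row of tumor 1 holds both the strongest blue, Hells at -2.58, and the strongest red, Tk1 at 1.43.

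The size of the difference was measured as log2(TMM-scaled CPM + 1) of a tumor minus the mean of the other 5, on which low genes move less than their true fold. In tumor 5 the median over the 42 genes was 0.50, with a range of -0.36 to 1.32, and 38 of 42 were above 0, while over all genes the median was 0.01 and 51.1% were above 0. The largest were Hells at 1.32, Mcm4 at 1.15, Exo1 at 1.11, Gmnn at 1.02, Orc6 at 1.00 and Fen1 at 0.95. The 4 genes below 0 were Rfc2, Rfc5, Slbp and Tyms. All 11 licensing genes and all 6 helicase activation genes were above 0. With the base composition trend removed the median was 0.38 with 37 above 0, against 46.4% of all genes. Without tumor 1 it was 0.46 with 39 above 0, against 50.2%. In tumor 5 the 29 mitotic genes were higher as well, with a median of 0.94 and 29 of 29 above 0, and of 50 other replication genes, of which 48 were tested, 40 were above 0 with a median of 0.31. Basal markers summed to 502 CPM in that tumor, and their part in the result was not tested. For tumors 2, 3, 4 and 6 the medians were -0.24, 0.01, -0.12 and -0.10, with 19, 22, 14 and 17 of the 42 genes above 0. Of all genes, 48.8, 52.1, 47.7 and 51.5% were above 0 in these tumors. Tumor 3, with its immune and erythroid counts, thus had a median near that of all genes.

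**Figure D3:**
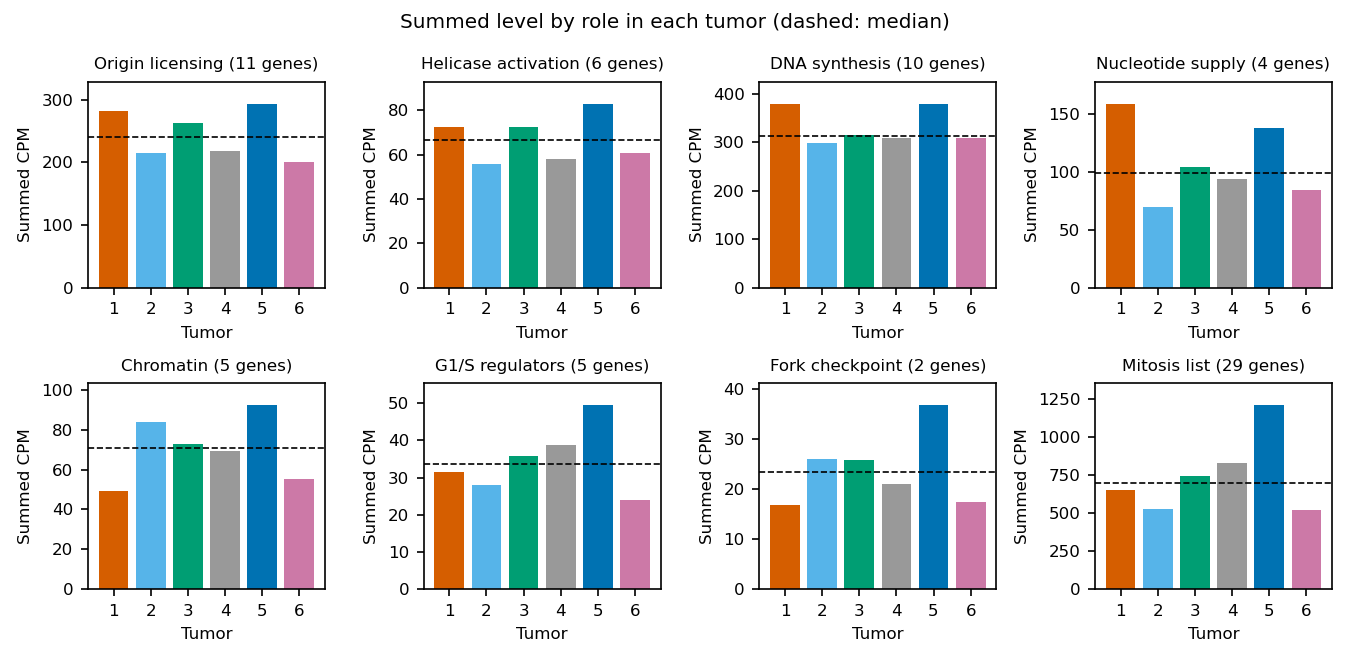
Summed level in CPM of each role in each tumor (bars from 0, 1 library per bar, dashed line at the median of the 6), with the mitosis list for comparison. Tumor 5 is highest in licensing, helicase activation, chromatin, G1/S regulators and checkpoint, tumor 1 is highest in nucleotide supply and low in chromatin and checkpoint, and the mitosis sum of 1210 CPM in tumor 5 stands above 517 to 832 CPM in the others.

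Tumor 1 was highest for some genes and lowest for others. In its library 32.5% of all genes were highest and 31% lowest, more than in any other tumor. Over the 42 genes the median difference was -0.13 with 17 above 0, while 51.6% of all genes were above 0. The range ran from -2.58 for Hells to 1.43 for Tk1. Below -1 were Hells, Pola1, Fen1, Mcm4, Orc6 and Gins3, and above 1 were Tk1, Mcm5 and Rfc5. These differences moved with base composition. The GC content of the last 300 transcript bases was 23.3 to 53.3% over the group, and its correlation with the difference in tumor 1 was r = 0.52 over 42 genes and 0.39 over 12068 genes, points that all come from the same library and share its depth. Of 15 genes under 40% GC, 2 were above 0, with a median of -0.45, and of 14 genes at 45% or more, 10 were above 0, with a median of 0.38. Over all genes those medians were -0.37 and 0.43. With the trend removed, the median in tumor 1 was 0.06 with 23 of 42 above 0, and the range ran from -2.06 to 1.54. Over all genes the median was then 0.12, with 6769 of 12088 above 0, so the group median lay below it. The part of base composition in the values of single genes was not tested.

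**Figure D4:**
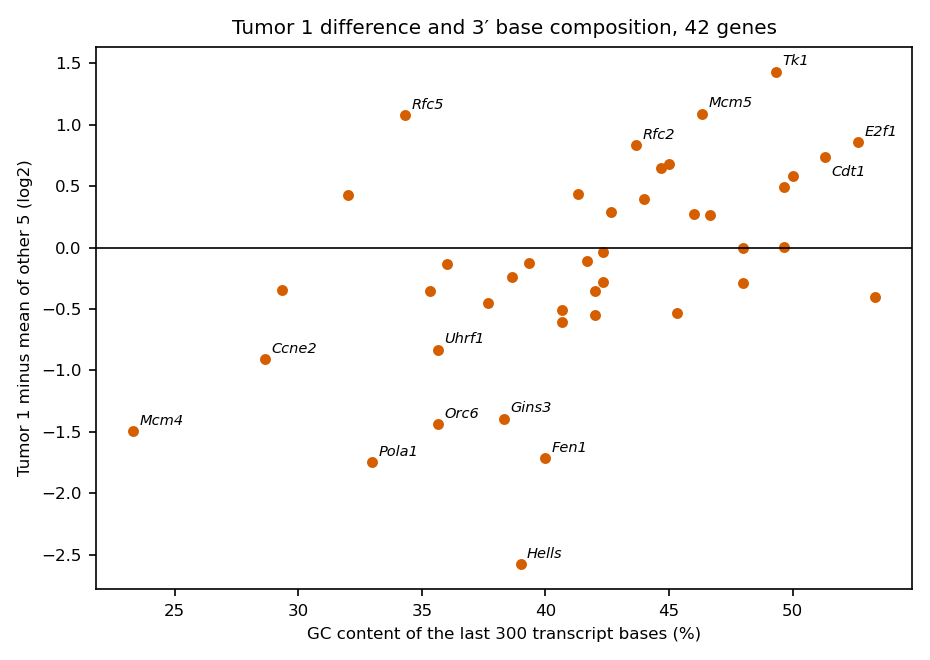
Difference of tumor 1 from the mean of the other 5 (log2, vertical) against the GC content of the last 300 transcript bases (percent, horizontal), 1 point per gene for the 42 genes that passed the filter, with genes beyond 0.7 in either direction named. Points at low GC lie mostly below 0 and points at high GC mostly above it (r = 0.52), with Rfc5 as an exception at the upper left.

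Levels were also set against those of mitosis, the later phase of the cycle. The summed level of the 43 genes over that of the 29 mitotic genes was, from tumor 1 to tumor 6, 1.52, 1.47, 1.19, 0.970, 0.886 and 1.45. The lists differ in size, so only the order of the tumors is read from this ratio, with tumors 5 and 4 lowest. The mitosis sums ran from 517 CPM in tumor 6 to 1210 CPM in tumor 5, a ratio of 2.34, against 1.43 for the replication sum. Mki67, the gene of the Ki-67 proliferation antigen, was 41.6 CPM in tumor 1, 34.7 CPM in tumor 2, 35.6 CPM in tumor 3, 65.5 CPM in tumor 4, 61.3 CPM in tumor 5 and 35.9 CPM in tumor 6, highest in the same 2 tumors. On a mean of log2 values in place of sums, the difference between the lists from tumor 1 to tumor 6 was 0.32, 0.14, -0.08, -0.32, -0.48 and 0.06, again lowest in tumors 5 and 4.

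The study defines a hypoxia score as the mean TPM of Vegfa, Slc2a1 and Car9, which encode the angiogenic factor VEGF-A, a glucose transporter and a carbonic anhydrase, all known targets of hypoxia-inducible factor. From tumor 1 to tumor 6 the score was 48.5, 37.2, 51.4, 76.6, 94.4 and 47.3. It was used as a continuous measure. A slope is the log2 change in a gene's level per doubling of the score. By edgeR's quasi-likelihood test with Benjamini-Hochberg adjustment, 0 of the 42 replication genes passed an adjusted p of 0.05, as did 0 of 12088 genes (0%). At an unadjusted p under 0.05 there were 0 of 42, against 4.24% of all genes, and DESeq2 called 0 of the 42 and 15 genes in all. The slope was above 0 in 33 of 42 genes, against 46.8% of all genes, with a median of 0.31, against -0.04. By role, 9 of 11 licensing genes, 5 of 6 helicase activation genes, 8 of 10 synthesis genes, 3 of 4 nucleotide supply genes, 3 of 5 chromatin genes, 3 of 4 regulators tested and both checkpoint genes had a slope above 0.

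**Figure D5:**
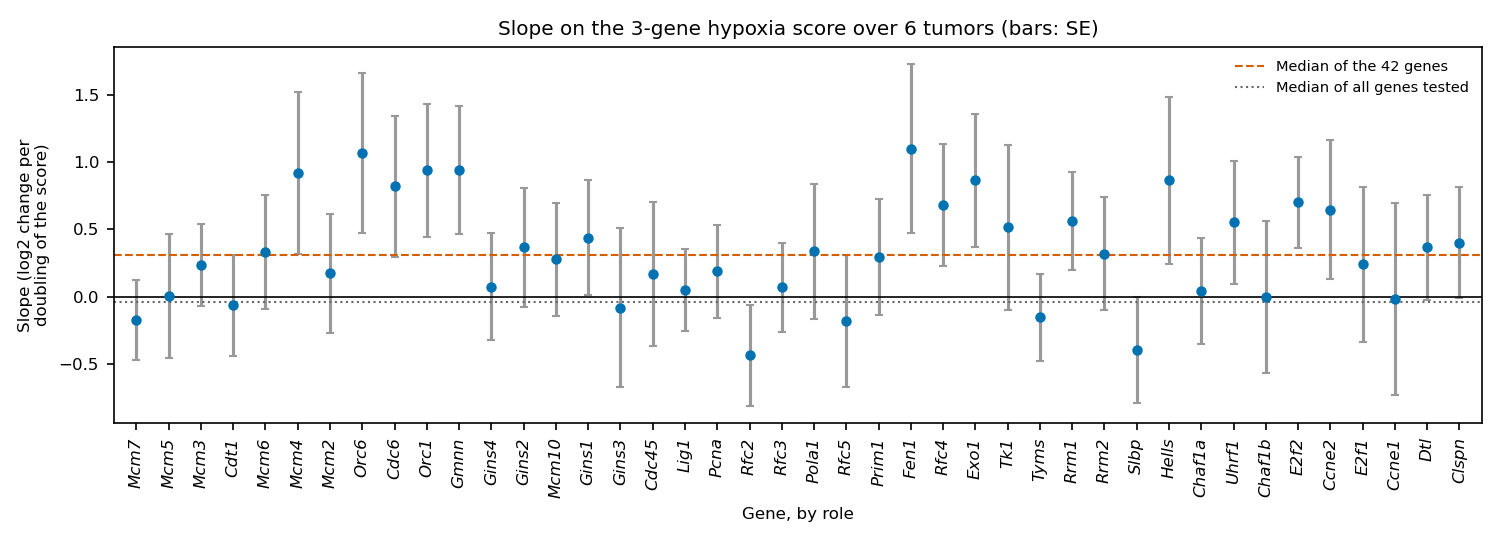
Slope of each of the 42 genes on the 3-gene hypoxia score over 6 tumors (log2 change per doubling of the score, bars are 1 standard error), with the median of the group dashed and that of all genes dotted. The group median of 0.31 lies above that of all genes at -0.04, the largest slope is that of Fen1 at 1.10, and no slope passed the test.

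The largest slopes were 1.10 ± 0.63 (SE) for Fen1, 1.07 ± 0.59 for Orc6, 0.94 ± 0.47 for Gmnn, 0.94 ± 0.49 for Orc1 and 0.92 ± 0.60 for Mcm4. In tumor 2, which had the lowest score, these genes had only 9, 8, 7, 6 and 16 counts. In tumor 1, with a score of 48.5, their log2 differences from the other tumors were, in the same order, -1.72, -1.44, -0.11, -0.35 and -1.49. No slope was fitted with the base composition trend removed. The slopes nearest the test's threshold were those of E2f2, with 0.70 ± 0.34 and an unadjusted p of 0.0683 by edgeR's quasi-likelihood test, and Gmnn, with 0.0759. After Benjamini-Hochberg adjustment in edgeR both stood at 0.954. The most negative were -0.43 ± 0.37 for Rfc2 and -0.39 ± 0.39 for Slbp. The slopes of the 3 most abundant genes, Lig1 (0.05 ± 0.31), Mcm7 (-0.17 ± 0.30) and Pcna (0.19 ± 0.34), lay within 1 SE of 0. The median slope depended on which tumors entered. Without tumor 5, which had the highest score, it was 0.04, with 23 of 42 above 0, against 5623 of 12088 genes. Without tumors 5 and 4, the farthest from the median score, it was 0.61, with 26 of 42 above 0. Over all genes the median was then 0.17, with 6590 of 12088 above 0, over scores of only 37.2 to 51.4. Of the 29 mitotic genes, 29 had a slope above 0, with a median of 0.90. In edgeR 10 were at an unadjusted p under 0.05, against 4.24% of all genes, and 0 after adjustment. Without tumor 5 their median was 0.60 with 28 above 0 and 0 at an unadjusted p under 0.05, against 80 of 12088 genes. Without tumor 1 the median of the mitotic genes was 0.80 with 29 above 0 and 16 at that p, against 1001 of 12088 genes. Of 48 other replication genes tested, 32 had a slope above 0 (median 0.10), and of 17 genes of G1/S control tested out of 18, 14 did (median 0.26). None of them passed adjustment in edgeR, with 2 and 1 at an unadjusted p under 0.05. Mki67 had a slope of 0.71 ± 0.30.

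Sample identifiers in the labels carry the prefix QAF for tumors 1, 4, 5 and 6 and QSD for tumors 2 and 3, and what the prefixes stand for is not given in the sources used here. By edgeR's quasi-likelihood test with Benjamini-Hochberg adjustment, 0 of 42 replication genes and 0 of 12088 genes (0%) differed between them, and DESeq2 called 0 of the 42 and 2 genes in all. At an unadjusted p under 0.05 there were 2 of 42, against 3.88% of all genes. Slbp was lower with QAF by a log2 difference of -0.83 ± 0.29 (SE), and Rrm1 higher by 0.73 ± 0.32, both with an adjusted p of 0.938 in edgeR. Higher levels with QAF were found in 29 of 42 genes, against 55.3% of all genes, with a median difference of 0.11, against 0.06. Without tumor 5 the median turned to -0.06. With the prefix as a covariate, the median slope on the hypoxia score was 0.29, and within the 4 QAF tumors alone it was 0.38. The 2 QSD tumors are too few for a slope of their own.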

How the data were processed

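Sorted tumor cells of 6 tumors were profiled by a 3′ RNA-seq method (QuantSeq FWD) with unique molecular identifiers of 6 bases. The authors trimmed reads with bbduk, aligned them with STAR 2.5 to GRCm38/mm10 and obtained counts by HTSeq, using the Bluebee platform. The deposited values are raw counts per Ensembl gene. The annotation release, the strand setting and whether identifiers were collapsed are not given in the sources used here, so detection limits cover counting error only. The 5 lines of each table that name no gene (16.1 to 41.4% of reads) were left out.

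From the counts, CPM over all genes, TMM-scaled CPM and TPM (GENCODE M21 exon lengths, 47224 of 47643 identifiers matched) were computed. The filter was set on CPM, at the value that 10 counts have in a library of median total. Genes that reached it in at least 3 tumors and had a total of at least 15 counts were tested (12088). edgeR 4.0.16 in R 4.3.3 gave the quasi-likelihood tests on the hypoxia score and the identifier prefix, two-sided, with Benjamini-Hochberg adjustment over all genes tested. DESeq2 1.42.0 was an alternative. Scripts ran in Python 3.11.15 and were tested on simulated data. The labels give the tumors as separate samples, and p-values measure the spread between these samples. The study's classes were not assigned, and its DESeq2 comparison was not repeated.

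The replication genes, roles and lists were chosen with earlier results of these data known. All 43 genes of the list are named, with Mki67, the genes of the score and the marker lists. The other lists are given by counts, since no gene of them passed a test. Shared windows were found by exact match of 50-base stretches of the last 300 transcript bases to all annotated transcripts. The base composition trend was a polynomial of degree 3 per library. Promoters were those of RefSeq on GRCm38.p6, and 8 of the 43 genes had none. Alternatives were other scalings, filters, score definitions, thresholds and leaving out each tumor. The removal of the base composition trend, the restriction to genes without shared windows and the alternatives for the highest tumor were chosen after seeing the data.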

Additional observations from a re-analysis of the deposited data

Results flagged for a closer look

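For each of 63 measures (the levels of the 43 genes, their sums and their ratios), the tumor farthest out was compared with the others by Dixon's ratio of the gap to the range, at the 95% critical value for 6 samples. Of the 63, 5 measures had a tumor far from the others, where chance gives about 1 in 20, or 3.15. In tumor 1 these were Mcm5 at 69.6 CPM (gap over range 0.709), Rfc2 at 63.1 CPM (0.654) and Rfc5 at 42.3 CPM (0.763), each the highest value of its gene. In tumor 5 they were Mcm3 at 40.5 CPM (0.665) and Exo1 at 8.79 CPM (0.820), again the highest values. The end windows of Rfc5 lie to 59.0% in Wsb2 on the opposite strand, and the share of that gene in the reads was not tested.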

How the results depend on the processing

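Of 86 alternative values, 79 stayed within the limits set for their result and 7 moved beyond them. The limits were the same calls, a count within 1.5 times, or a value within 1 SD or standard error. For the median slope and the median prefix difference, that standard error came from the same fits with 1 tumor left out. It thus cannot judge those fits, and a slope of 0.04 without tumor 5, from 0.31, still counted as within. Among the 79 that stayed, 15 values for the score and 10 for the prefix were 0 calls that stayed 0. No gene of the list was called in any fit, so there was no call that could change sign. The median difference between prefixes went from 0.11 to -0.06 without tumor 5. The summed level of the 43 genes, with a median of 848 CPM, was 557 in TPM, 1037 CPM without the 10 most abundant genes of each library and 656 CPM over the genes that share no window with another gene, each of which changes what is summed. It lay between 807 and 888 CPM with 1 tumor left out in turn. The count of genes with a ratio of 2 or more between tumors was 31 (73.8%, against 68.9% of all genes). At a ratio of 3 the count is smaller by construction and was 12 (28.6%, against 35.7% of all genes). At a ratio of 2 the count lay between 20 and 31 with 1 tumor left out. The 20 was reached without tumor 5, and the cause was not tested. With the base composition trend removed it was 24, against 62.3% of all genes. The ratio to the mitosis sum had a median of 1.32, and on a difference of mean log2 values -0.014, a different scale. The median slope on the hypoxia score rose from 0.31 to 0.61 without tumors 5 and 4, the farthest from the median score, where that of all genes was 0.17, and the cause was not tested. No gene of the list passed an adjusted p of 0.05 or 0.1 in any fit run on the score or the prefix. The octamer count of 16 was 24 for the 7-letter core, against 10.9% of all genes. It was 11 for the bases before the start alone, against 2.16% of all genes. No paired analysis was possible because all 6 tumors belong to 1 group. Low counts limit what can be said of Ccne1, with 2 counts in tumor 2, and of E2f8, with 2 in tumor 2 and 3 in tumor 1. Fen1, Orc6, Gmnn and Orc1, among the largest slopes, had 6 to 9 counts in tumor 2.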
